A study of Mus musculus with 24 samples.

Results

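Laminins are secreted proteins of basement membranes, the thin sheets of matrix under epithelium and endothelium and around muscle cells. The 9 laminin chain genes Lama1, Lama2, Lama3, Lama4, Lama5, Lamb1, Lamb2, Lamb3 and Lamc1 were followed here in whole mouse lung. They were chosen by gene symbol in the platform annotation, and they are 9 of the 19505 genes with a named probe set. Each of the 9 had 1 probe set. The gamma 3 chain gene Lamc3 is given once for comparison.

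Each laminin is a trimer of an alpha, a beta and a gamma chain wound into a coiled coil. The gamma 1 chain, made from Lamc1, joins most of the trimers, while the beta 3 chain, made from Lamb3, joins the epithelial trimer that carries alpha 3. The globular end of the alpha chain binds integrins and dystroglycan on cells, and the other chains help to link the laminin sheet to nidogen, collagen IV and the proteoglycans. In the lung, laminins lie in the shared basement membrane between alveolar epithelium and capillary, under the airways, and around vessels and smooth muscle.

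The study set Marfan mice against wild-type mice, each given vehicle or sildenafil, a phosphodiesterase 5 inhibitor. All mice were killed at 6 months. Sildenafil was given in drinking water from the age of 6 weeks; the labels write that treatment for every sample, and which mice had vehicle comes from the titles and the design text. The labels say only "Marfan" and name no allele, strain, sex or litter. There were 11 arrays from vehicle mice, 6 of them wild-type and 5 Marfan, and 9 from sildenafil mice, 4 of them wild-type and 5 Marfan. Arrays are called here by the running numbers of their titles. The planned number was 6 per group, and 4 columns titled as failing quality control held no values. These numbers run group by group, so group and any batch that went by number cannot be told apart. The labels do not say that each array is a separate animal, and a p-value therefore covers only the spread among these arrays, which may be technical.

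Levels below are quantile-normalized log2 values, 1 unit being a doubling, and a difference is between group means with its SE from limma, fitted over all genes. The two-sided p-values are unadjusted unless called adjusted, and adjusted p-values are Benjamini-Hochberg over all 19505 genes. Levels of different genes come from different probes and are not set against each other.

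In short, lungs of Marfan mice given vehicle had higher group means than lungs of wild-type mice given vehicle for 8 of the 9 chains. The differences of Lama5, Lamb1, Lamb2, Lamb3 and Lamc1 had unadjusted p-values under 0.05, at 1.25 to 1.45 times the wild-type level. None passed the adjusted threshold in any of 7 comparisons, and without Marfan vehicle array 20 none of the 9 had an unadjusted p under 0.05. Between the genotypes under sildenafil no chain had an unadjusted p under 0.05.

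Entries on the chromosome of Lama3 were left out of the promoter search beforehand, so Lama3 was not looked up. Promoter sequences from RefSeq (GRCm38.p6) were found for 5 of the 9 genes, namely Lama2, Lama5, Lamb1, Lamb2 and Lamb3. The 250 bases before the start are printed for the 4 of these with an unadjusted p under 0.05 in the vehicle comparison, on the gene's own strand, 5′ to 3′, so that their base composition and short motifs can be read beside the values. Capitals mark every match, on either strand, to any of 6 motifs searched: the GC box (GGGCGG), the CCAAT box (CCAAT), the core promoter element known as the TATA box (TATAAA), the element bound by Smad proteins (CAGACA), the element bound by AP-1 (TGANTCA) and the element bound by TEAD factors (GGAATG). The Lamb1 window is chr12:31265043-31265292 on the plus strand, the Lamb2 window chr9:108479612-108479861 on the plus strand, the Lamb3 window (the first of its 2 listed starts) chr1:193301744-193301993 on the plus strand, and the Lama5 window chr2:180225860-180226109 on the minus strand.
Lamb1: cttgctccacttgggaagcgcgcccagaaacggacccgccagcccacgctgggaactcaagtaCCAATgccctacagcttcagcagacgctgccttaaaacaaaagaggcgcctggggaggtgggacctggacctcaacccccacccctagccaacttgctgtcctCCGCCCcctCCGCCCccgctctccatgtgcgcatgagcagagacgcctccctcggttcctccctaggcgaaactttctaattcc
Lamb2: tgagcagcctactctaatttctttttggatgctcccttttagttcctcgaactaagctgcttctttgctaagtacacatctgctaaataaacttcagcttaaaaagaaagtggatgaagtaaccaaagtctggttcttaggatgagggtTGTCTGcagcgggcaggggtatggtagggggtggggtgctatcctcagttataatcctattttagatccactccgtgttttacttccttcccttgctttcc
Lamb3: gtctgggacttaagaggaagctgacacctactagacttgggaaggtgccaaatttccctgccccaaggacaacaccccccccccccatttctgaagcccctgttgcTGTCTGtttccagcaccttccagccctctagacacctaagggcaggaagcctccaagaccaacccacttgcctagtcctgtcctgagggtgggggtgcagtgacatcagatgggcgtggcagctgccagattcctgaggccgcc
Lama5: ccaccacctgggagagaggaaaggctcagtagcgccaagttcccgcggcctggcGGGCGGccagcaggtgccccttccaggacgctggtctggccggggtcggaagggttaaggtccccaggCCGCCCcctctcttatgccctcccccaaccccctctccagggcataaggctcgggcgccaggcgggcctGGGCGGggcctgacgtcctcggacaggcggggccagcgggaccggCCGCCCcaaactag

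The 4 windows were unlike each other in base composition. Lama5 had 72.4% G and C, more than 93.6% of all 32851 mouse promoter windows of that length, and Lamb2 had 43.6%, against a median of 52.4% over all windows. Lamb1 had 62% and the Lamb3 window 58.8%. The GC box occurred 4 times in Lama5, at 196, 128, 59 and 14 bases before the start, and 2 times in Lamb1, at 84 and 75 bases. That motif occurs in 32.7% of all windows. The CCAAT box, found in 33.8% of all windows, occurred once in Lamb1, at 187 bases. The Smad element occurred once in Lamb2, at 101 bases, and once in the Lamb3 window, at 144 bases, against 17.1% of all windows. The TATA box (12.4% of windows), the TEAD element (12.6%) and the AP-1 element (6.75%) had no match in these 4 windows. No searched motif was found in all 4. The window of the second listed Lamb3 start, not printed, had 1 TEAD match, at 167 bases, and no Smad match. A match is a description of letters and not evidence of binding.

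Several features of the arrays touch all the values that follow. Before quantile normalization the array medians lay between 5.32 and 6.45 log2 units, with group means of 5.66 ± 0.19 (SD, n = 6) in wild-type vehicle, 6.05 ± 0.14 (n = 4) in wild-type sildenafil, 6.03 ± 0.13 (n = 5) in Marfan vehicle and 6.06 ± 0.28 (n = 5) in Marfan sildenafil. Wild-type vehicle was thus the dimmest group as deposited, and that shift enters every comparison that uses this group on the deposited values. Alveolar type 2 cell markers averaged 11.5 to 11.9 on every array, as lung should show. The mean level of 3 Y-linked genes was 2.62 to 3.15 on arrays 13, 14, 5, 20, 21 and 8. On the other arrays it was 7.31 to 7.85, so the groups mixed low and high arrays unevenly. With these genes as a covariate the median chain difference between the vehicle groups was 0.32. Marfan sildenafil array 9 stood apart, with airway basal cell markers at 6.54 against 4.07 to 4.71 on the other 19 arrays, cardiac muscle markers at 5.47 against 7.79 to 8.72, and endothelial markers at 8.88 against 9.61 to 10.09. Whole lung mixes cell types, so fewer cells of a type and less RNA per cell cannot be told apart. In the laminin chains themselves, array 20 was the highest of all 20 arrays for 7 chains, array 17 the highest of the 6 wild-type vehicle arrays for 6 chains, and array 9 the lowest of all 20 for 5 chains.

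**Figure D1:**
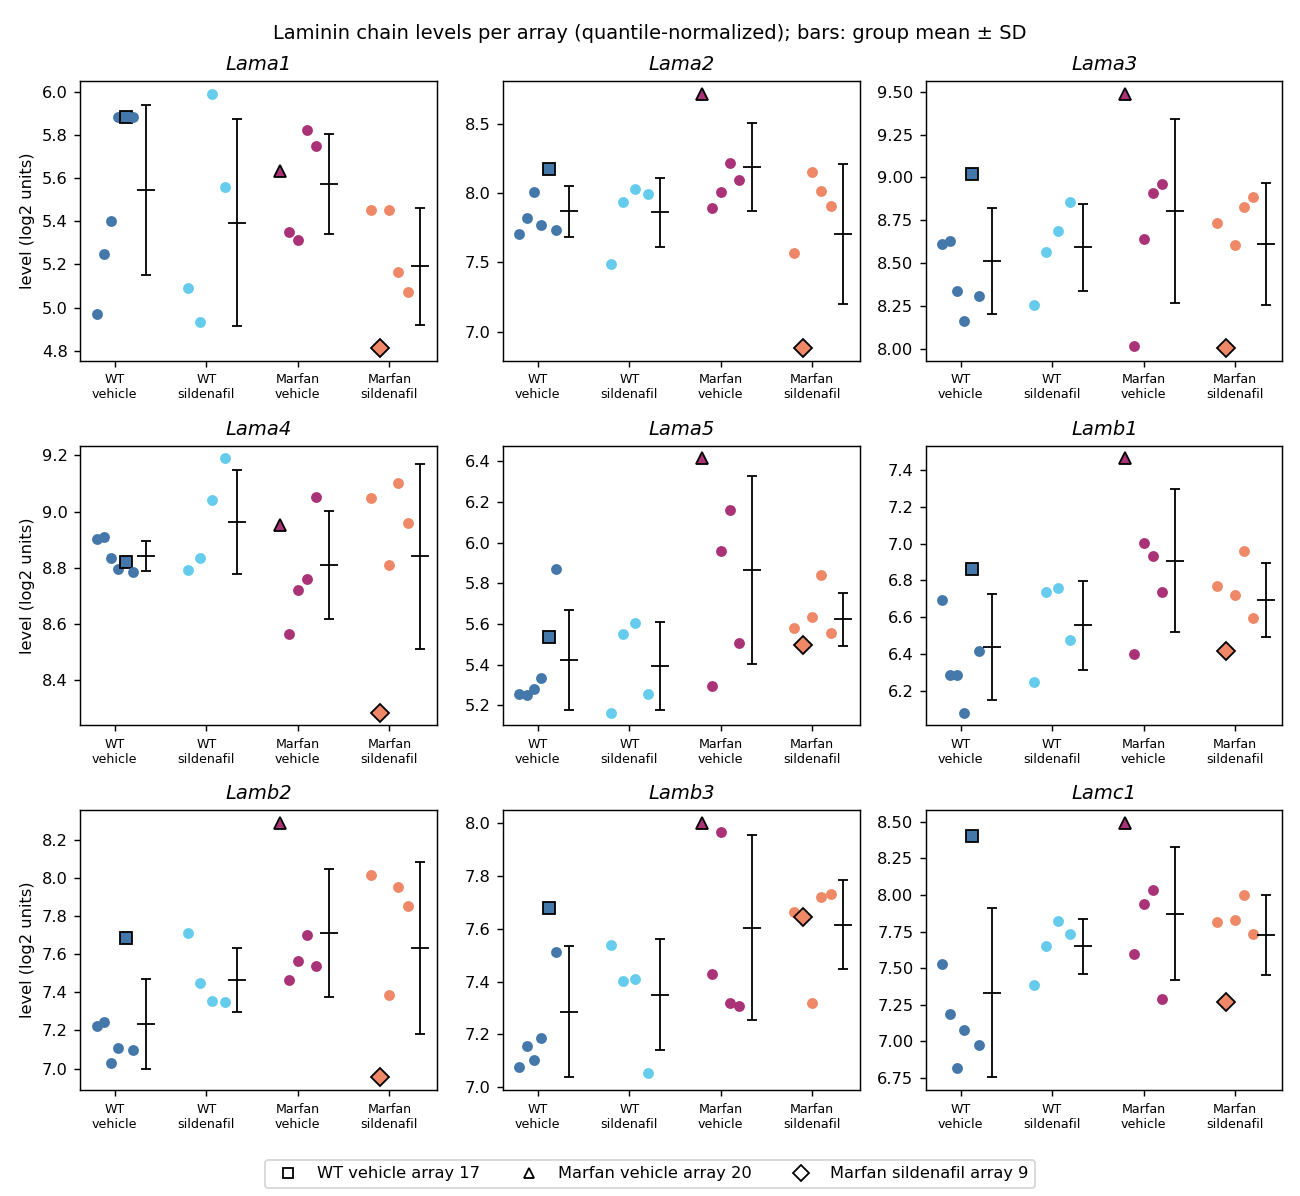
Level of each laminin chain (log2 units, quantile-normalized; the y axes differ and do not start at 0) on each of the 20 arrays, as points in 4 groups, with a bar for the group mean and whiskers for ± 1 SD. Marfan vehicle array 20 (triangle) tops 7 of the 9 panels, wild-type vehicle array 17 (square) lies high in its group, and Marfan sildenafil array 9 (diamond) lies lowest in its group in 8.

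The comparison of the 2 vehicle groups is given by chain type, with the beta chains first. Lamb1 encodes the beta 1 chain of most epithelial, endothelial and muscle laminins. Its level in wild-type vehicle ran from 6.08 over a median of 6.35 to 6.86, and in Marfan vehicle it was 7.47, 6.40, 7.00, 6.93 and 6.74 on arrays 20 to 24. The groups overlapped, with 4 of 5 Marfan arrays above the wild-type mean and array 21 below it. The difference was 0.47 ± 0.17 (1.39-fold), with p = 0.00923 and adjusted p = 0.789, and an exact two-sided permutation test over the 462 labelings gave p = 0.0476.

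Lamb2 encodes the beta 2 chain, found in vessel walls, at neuromuscular junctions and in the glomerulus. Wild-type vehicle arrays ran from 7.03 over a median of 7.17 to 7.68, and the Marfan vehicle arrays read 8.29, 7.46, 7.56, 7.70 and 7.54. All 5 Marfan arrays lay above the wild-type mean of 7.23, and the groups overlapped through wild-type array 17 alone, which was higher than 3 of the Marfan arrays. The difference was 0.48 ± 0.17 (1.39-fold), p = 0.0104 and adjusted p = 0.789, and the exact permutation p was 0.013. With the arrays' deposited brightness as a covariate the Lamb2 difference was 0.30.

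Lamb3 encodes the beta 3 chain of the anchoring laminin of epithelia. Wild-type vehicle ran from 7.08 over a median of 7.17 to 7.68, and Marfan vehicle read 8.00, 7.43, 7.97, 7.32 and 7.31. Marfan arrays 20 and 22 lay above every wild-type vehicle array, and the other arrays lay inside the wild-type range. The difference was 0.32 ± 0.15 (1.25-fold), p = 0.0381, adjusted p = 0.789 and exact permutation p = 0.119.

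The gamma 1 chain gene Lamc1, whose product is shared by the widest set of trimers, had the largest difference of the 9 and also the largest spread. Wild-type vehicle ran from 6.82 over a median of 7.13 to 8.40, and Marfan vehicle read 8.49, 7.59, 7.94, 8.04 and 7.29. Wild-type array 17, at 8.40, was higher than 4 of the 5 Marfan arrays, and Marfan array 24 lay below the wild-type mean of 7.33. The difference was 0.54 ± 0.22 (1.45-fold), p = 0.0219, adjusted p = 0.789 and exact permutation p = 0.117. The pooled within-group SD of Lamc1 was 0.426, larger than that of 93.6% of all genes.

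Lama5 encodes the alpha 5 chain, the main laminin alpha chain of mature epithelial and vascular basement membranes. Its probe set was dim, exceeding the brightest of 23 background probe sets on 6 of 20 arrays, so the true fold is uncertain. Wild-type vehicle ran from 5.25 over a median of 5.31 to 5.87, and Marfan vehicle read 6.42, 5.29, 5.96, 6.16 and 5.51. Marfan arrays 20, 22 and 23 lay above every wild-type vehicle array, and arrays 21 and 24 lay within the wild-type range. The difference was 0.44 ± 0.18 (1.36-fold), p = 0.0184, adjusted p = 0.789 and exact permutation p = 0.0649.

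The remaining alpha chains differed less. Lama2, the alpha 2 chain of muscle and nerve basement membranes, read 8.72, 7.89, 8.01, 8.22 and 8.10 in Marfan vehicle against 7.70 to 8.17 in wild-type vehicle. All 5 Marfan arrays were above the wild-type mean, and the difference was 0.32 ± 0.18 with p = 0.0865, adjusted p = 0.803 and exact permutation p = 0.0519. Lama3, the alpha 3 chain of epithelial laminin, read 9.49, 8.01, 8.64, 8.91 and 8.96 against 8.16 to 9.02. Array 20 was the highest and array 21 the lowest over both groups, and the difference was 0.29 ± 0.20 (p = 0.152, exact permutation p = 0.29).

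Lama4, the alpha 4 chain of endothelial and muscle laminins, was the steadiest chain, with a pooled within-group SD of 0.210. It read 8.95, 8.57, 8.72, 8.76 and 9.05 in Marfan vehicle and 8.78 to 8.91 in wild-type vehicle. The difference was -0.03 ± 0.12 (p = 0.795, exact permutation p = 0.723), and the deposited values, which carry the brightness shift between the groups, gave 0.23. Lama1, the alpha 1 chain known best from the embryo, was dim, with 7 of 20 arrays above the brightest background probe set. It ran from 4.97 to 5.89 in wild-type vehicle and from 5.31 to 5.82 in Marfan vehicle, a difference of 0.03 ± 0.20 (p = 0.887, exact permutation p = 0.896). Lama1 and Lama4 were thus within their spread between the vehicle groups. The gamma 3 chain gene Lamc3, outside the 9, was higher by 0.40 ± 0.19 (p = 0.046, adjusted p = 0.79, exact permutation p = 0.16), and 10 of its 20 arrays were above the brightest background probe set.

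Counted together, 8 of 9 chains were higher in Marfan vehicle than in wild-type vehicle, and this count was 8 with median centring and 9 on the deposited values. The median difference of the chains was 0.32, beside a median of -0.00479 and 48.8% higher over all genes. Of the 9, 5 had p under 0.05, all higher, while 6.26% of all genes had p under 0.05 in either direction and 3.48% were higher at that threshold. For adjusted p under 0.05 the counts were 0 of 9 and 0% of all genes. No chain had groups that did not overlap with Marfan higher, against 0.261% of all genes. The 9 chains came from the same arrays and are not separate replicates of the genotype difference.

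These values depended on array 20. Without it the differences were 0.31 for Lama5, 0.33 for Lamb1, 0.33 for Lamb2, 0.22 for Lamb3, 0.39 for Lamc1, 0.19 for Lama2 and 0.12 for Lama3. Still 8 of 9 chains were higher, but 0 had p under 0.05. Without Marfan array 21, in contrast, 9 of 9 were higher with a median of 0.49, and 7 had p under 0.05. Without wild-type array 17 the count stayed at 5, and without wild-type array 15 it was 3. For the fits without array 21, 17 or 15 no share over all genes is given, so their counts lack that background. With array brightness as a covariate the count was 3, beside 7.23% of all genes. Median centring of the deposited values also gave 3, beside 15.8% of all genes.

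**Figure D2:**
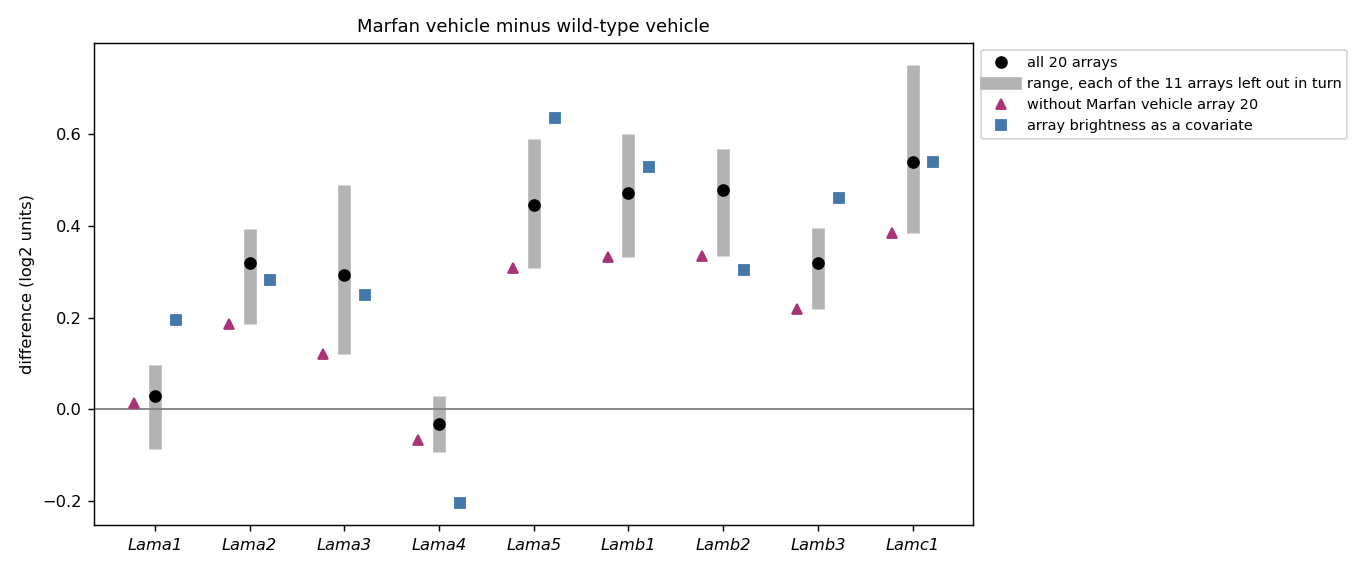
Difference between Marfan vehicle and wild-type vehicle (log2 units) for each chain with all 20 arrays (black points), its range when each of the 11 arrays of the 2 groups was left out in turn (grey bars), without Marfan vehicle array 20 (triangles) and with array brightness as a covariate (squares). For 7 chains the triangle lies at the low end of its grey bar, and for all but Lama1 and Lama4 every value stays above 0.

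Under sildenafil the same genotype comparison gave smaller values. Marfan sildenafil was higher than wild-type sildenafil for 6 of 9 chains and lower for 3, with a median difference of 0.08 and a range from -0.20 for Lama1 to 0.26 for Lamb3. Over all genes 48.7% were higher. Single arrays set that count and median: without wild-type sildenafil array 1 there were 4 higher and 5 lower with a median of -0.01, without Marfan sildenafil array 11 5 were higher with a median of 0.01, and without Marfan sildenafil array 9 8 were higher with a median of 0.19. Lamb3 read 7.66, 7.64, 7.32, 7.72 and 7.73 in Marfan sildenafil (arrays 8 to 12) and 7.54, 7.40, 7.41 and 7.05 in wild-type sildenafil (arrays 1, 4, 5 and 6). In Lamb3, 4 of the 5 Marfan arrays lay above all 4 wild-type arrays, and array 10 lay among them. The difference was 0.26 ± 0.16, p = 0.113, with an exact permutation p of 0.0556 over 126 labelings. None of the 9 had p under 0.05, against 3.89% of all genes, and 0% of genes passed the adjusted threshold.

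Averaged over both treatments, Marfan was higher than wild-type for 7 of 9 chains, with a median of 0.29. At p under 0.05, 4 were higher, beside 5.35% of all genes in either direction and 2.8% higher, and adjusted p was under 0.05 for 0% of genes. These were Lamb3 at 0.29 ± 0.11, Lama5 at 0.34 ± 0.13, Lamb2 at 0.32 ± 0.13 and Lamb1 at 0.30 ± 0.12, each with adjusted p = 0.918. Lamc1, at 0.31 ± 0.16, was not among them. This average shares its arrays with the vehicle comparison and is not separate evidence. Without array 20 the count was 3, and no share over all genes is given for that fit.

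Sildenafil in wild-type mice was set against vehicle next. Of the 9 chains 6 were higher and 3 lower, with a median of 0.08 and a range from -0.15 for Lama1 to 0.32 for Lamc1. Lamc1 read 7.39, 7.65, 7.83 and 7.73 on the wild-type sildenafil arrays, against a vehicle median of 7.13 with array 17 at 8.40. Its difference of 0.32 ± 0.24 was not past the spread (p = 0.19, exact permutation p = 0.338 over 210 labelings). Lamb2 was higher on all 4 sildenafil arrays than the vehicle mean, at 7.71, 7.45, 7.35 and 7.35, a difference of 0.23 ± 0.18 (p = 0.218, exact permutation p = 0.143). None of the 9 had p under 0.05, against 9.1% of all genes, and the adjusted threshold was passed by 0% of genes. On the deposited values without quantile normalization 5 chains had p under 0.05, all higher, but so did 27.3% of all genes in either direction, and the median of all genes was at 0.28. The median of the chains ran from 0.05 without array 16 to 0.15 without array 1, at which 8 chains were higher.

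In Marfan mice, sildenafil against vehicle gave lower values for 7 of 9 chains, with a median of -0.19 beside -0.00674 over all genes. Lama2 was the one chain with p under 0.05, against 6.71% of all genes in either direction, 3.41% lower, and 0% by adjusted p. Lama2 read 7.57, 6.88, 8.15, 8.01 and 7.91 in Marfan sildenafil, against 8.72, 7.89, 8.01, 8.22 and 8.10 in Marfan vehicle. Array 9 was the lowest and array 20 the highest of all 20 arrays, and the other arrays overlapped. The difference was -0.48 ± 0.19, p = 0.0161, adjusted p = 0.722, and the exact permutation p was 0.119 over 252 labelings. Without array 9 it was -0.28, and without array 9, or without array 20, no chain had p under 0.05. Without array 21 there were 3, and no share over all genes is given for that fit. The median of the 9 chains also turned on these arrays, at -0.04 without array 9 (6 chains lower), -0.02 without array 20 (5 lower) and -0.34 without array 21 (9 lower).

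Lama1 read 5.45, 4.81, 5.45, 5.17 and 5.07 in Marfan sildenafil and 5.63, 5.35, 5.31, 5.82 and 5.75 in Marfan vehicle, near background in both. The difference was -0.38 ± 0.21 (p = 0.0812, exact permutation p = 0.0476). Lamb3 at 0.01 ± 0.15 and Lama4 at 0.03 ± 0.13 were the 2 chains not lower. The Marfan vehicle arrays, array 20 among them, serve both this comparison and the genotype comparison under vehicle. A high array there raises the one difference and lowers the other, so the opposite signs are not separate observations.

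**Figure D3:**
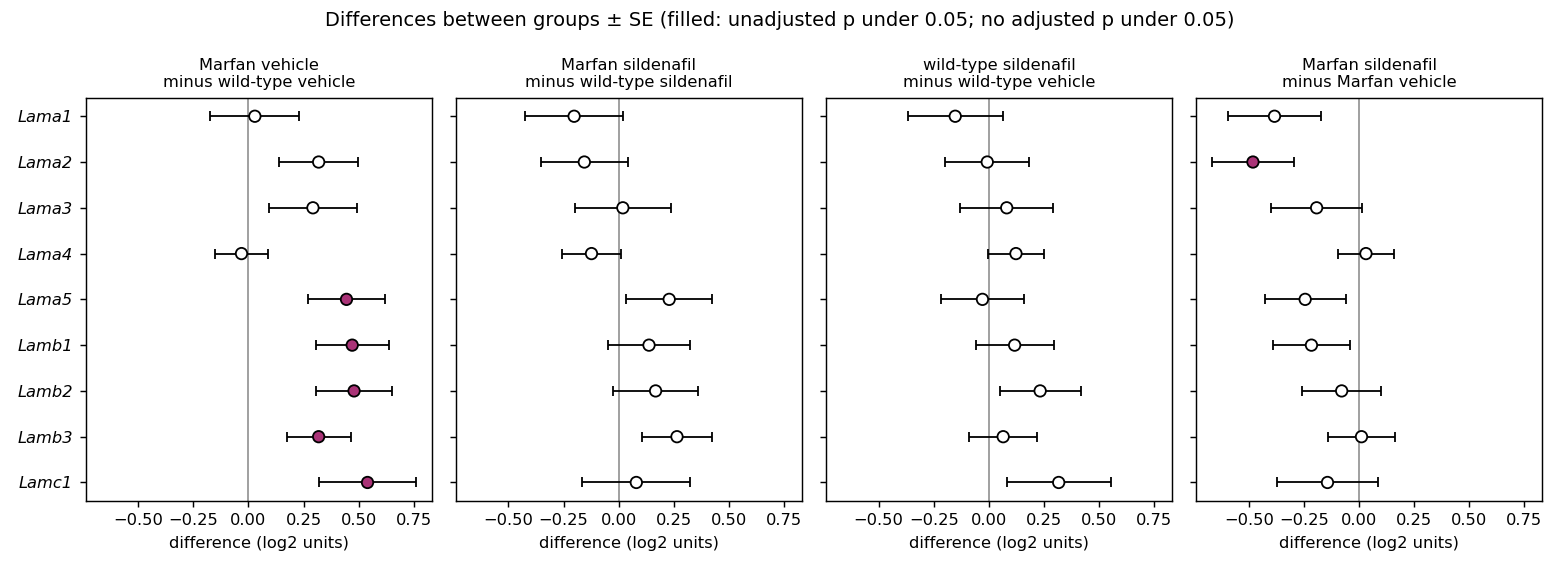
Difference between groups ± SE (log2 units) for each of the 9 chains in the 4 pairwise comparisons, with filled points for an unadjusted p under 0.05. The filled points are 5 chains in Marfan vehicle minus wild-type vehicle and Lama2 in Marfan sildenafil minus Marfan vehicle; no adjusted p was under 0.05.

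The interaction asks whether the sildenafil difference was the same in both genotypes. It was below 0 for all 9 chains with quantile normalization and on the deposited values, and for 7 of 9 with median centring, where Lama4 and Lamb3 were above 0. Over all genes 49.6% were above 0. The values ran from -0.47 ± 0.27 for Lama2 to -0.05 ± 0.22 for Lamb3, with a median of -0.27, and Lamc1 was at -0.46 ± 0.33. None had p under 0.05, against 4.47% of all genes and 0% by adjusted p, with adjusted p between 0.984 and 0.987. Without array 9 the median was -0.14, and without array 20 it was -0.17, each with 8 of 9 chains below 0. Without wild-type array 17, without array 1 or without array 10, 1 chain of 9 had p under 0.05. No share over all genes is given for those fits, so this count is not shown to differ from the background. Sildenafil against vehicle averaged over genotypes gave 4 chains higher and 5 lower, with a median of -0.05, and Lama1 at -0.27 ± 0.15 and Lama2 at -0.24 ± 0.13 were the lowest. The median turned above 0 without array 1, 9 or 20, and on the deposited values, where 7 chains were higher. None had p under 0.05, while 10.9% of all genes did and 0% passed the adjusted threshold.

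The 4 group levels put these comparisons side by side. For Lamb1 the means were 6.44 ± 0.29 in wild-type vehicle, 6.55 ± 0.24 in wild-type sildenafil, 6.69 ± 0.20 in Marfan sildenafil and 6.91 ± 0.39 in Marfan vehicle. For Lamc1 the same order held, at 7.33 ± 0.58, 7.65 ± 0.19, 7.73 ± 0.27 and 7.87 ± 0.46. Lamb2 too went from 7.23 ± 0.24 and 7.46 ± 0.17 to 7.63 ± 0.45 and 7.71 ± 0.33. In these 3 genes neighbouring groups differed by less than the larger of their SDs, which are over 6, 4, 5 and 5 arrays in that order of groups.

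Lama5 lay at 5.39 ± 0.22 in wild-type sildenafil, 5.42 ± 0.25 in wild-type vehicle, 5.62 ± 0.13 in Marfan sildenafil and 5.87 ± 0.46 in Marfan vehicle. Lamb3 lay at 7.29 ± 0.25 and 7.35 ± 0.21 in the wild-type groups (vehicle, then sildenafil) and at 7.60 ± 0.35 and 7.62 ± 0.17 in the Marfan groups. For Lama2 the means were 7.87 ± 0.18 and 7.86 ± 0.25 in wild-type mice and 8.19 ± 0.32 and 7.71 ± 0.51 in Marfan mice, vehicle first and sildenafil second. Marfan sildenafil was thus the lowest of the 4 for Lama2, and neighbouring groups again differed by less than the larger of their SDs.

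In that same order of groups Lama3 lay at 8.51 ± 0.31, 8.59 ± 0.25, 8.80 ± 0.54 and 8.61 ± 0.36, and Lama4 at 8.84 ± 0.05, 8.96 ± 0.19, 8.81 ± 0.19 and 8.84 ± 0.33. Lama1 lay at 5.55 ± 0.40, 5.39 ± 0.48, 5.57 ± 0.23 and 5.19 ± 0.27. For these 3 alpha chains the largest SD inside a group exceeded the widest distance between group means.

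The proteins that laminin binds were taken from lists chosen with earlier results of these data known, and they come from the same arrays. Of 8 laminin receptor genes 7 were higher in Marfan vehicle than in wild-type vehicle (6 with median centring), with a median of 0.28, and 4 had p under 0.05 beside 6.26% of all genes. These were the integrin alpha chains Itga3 (0.40 ± 0.13, exact permutation p = 0.0238), Itga7 (0.59 ± 0.21, exact permutation p = 0.00649) and Itga6 (0.31 ± 0.15, exact permutation p = 0.11). The other was Dag1, the gene of dystroglycan (0.31 ± 0.12, exact permutation p = 0.0714). Itga7 had means of 5.30 in wild-type vehicle and 5.89 in Marfan vehicle, under the all-gene median level of 6.08, so its fold is uncertain. Of 15 basement membrane partners 14 were higher (13 with median centring), with a median of 0.22, and 4 had p under 0.05. They were Hspg2 (perlecan, 0.66 ± 0.22, exact permutation p = 0.0606) and Agrn (agrin, 0.42 ± 0.15, exact permutation p = 0.0801). The others were Col4a2 (a collagen IV chain, 0.53 ± 0.19, exact permutation p = 0.0758) and Nid1 (nidogen 1, which joins laminin to collagen IV, 0.37 ± 0.17, exact permutation p = 0.0779). All of these receptors and partners had limma adjusted p-values between 0.785 and 0.79. Without array 20, 8 receptors and 12 partners were higher, and 3 and 2 had p under 0.05, beside 5.6% of all genes. The median of the partners was then 0.14.

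In wild-type mice, 8 of 8 receptors were higher with sildenafil than with vehicle (median 0.18), and 3 had p under 0.05. Of the 15 partners 14 were higher (median 0.25), and 2 had p under 0.05, beside 9.1% of all genes. This shares the wild-type vehicle arrays with the vehicle comparison. Under sildenafil, 4 of 8 receptors and 5 of 15 partners were higher in Marfan (medians -0.01 and -0.10). There 1 receptor and 2 partners had p under 0.05, beside 3.89% of all genes. Receptors and partners did not move one way with sildenafil in Marfan mice. There 4 of 8 receptors and 5 of 15 partners were higher, none with p under 0.05, beside 6.71% of all genes. Without array 9, 6 receptors and 12 partners were higher, and 1 receptor had p under 0.05 (6.86% of all genes). Averaged over treatments, Itga7 was higher in Marfan by 0.54 ± 0.16, Col4a1 by 0.33 ± 0.12 and Col4a2 by 0.39 ± 0.14, each with adjusted p = 0.918. The hemidesmosome list, the anchoring complex that holds the alpha 3 and beta 3 laminin, had 5 of 6 genes measured, with 2 higher and 1 (Itga6) at p under 0.05 between the vehicle groups. The dystrophin complex with its dystroglycan-modifying enzymes had 13 of 18 genes measured, with 6 higher and 1 (Dag1) at p under 0.05. As 6.26% of all genes had p under 0.05 there, single genes in lists of this size are near the background. These last lists share genes with the receptor list.

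Markers of other cell types moved between the same groups. All 5 mesothelial markers were higher in Marfan vehicle than in wild-type vehicle, by 0.43 on average, with 3 at p under 0.05 (6.26% of all genes), and the list mean ran from 6.52 to 7.25 against 6.09 to 7.02. Endothelial markers were higher in 8 of 10, by 0.14 on average, with list means of 9.70 to 10.05 against 9.61 to 9.91. Among Marfan vehicle arrays, array 20 had the highest endothelial mean at 10.05 but a mesothelial mean of 6.75, the second lowest of its group. Wild-type array 17 had the highest mean of its group on both lists, 9.91 and 7.02. In wild-type mice, endothelial markers were higher with sildenafil in 9 of 10, by 0.26 on average, and all 3 measured ciliated cell markers were lower, by 0.43 on average, with list means of 8.24 to 8.47 against 8.69 to 8.88. Between the vehicle groups the ciliated markers were lower in Marfan by 0.23 on average (1 of 3 at p under 0.05), and all 5 macrophage markers were higher, by 0.20 on average (0 at p under 0.05). The macrophage list mean was 8.42 on Marfan vehicle array 21. On the other Marfan vehicle arrays it was 7.70 to 7.81, inside the wild-type vehicle range of 7.50 to 7.85.

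In Marfan mice, endothelial markers were lower with sildenafil in 9 of 10, by 0.18 on average, and alveolar type 1 markers in 5 of 6, by 0.17, with 2 at p under 0.05 beside 6.71% of all genes. Without array 9, endothelial markers were lower in 3 of 10 and alveolar type 1 markers in 4 of 6, with 0 at p under 0.05. In the interaction, endothelial markers were below 0 in 9 of 10, with a mean of -0.43 and 3 at p under 0.05, beside 4.47% of all genes, and without array 9 the mean was -0.22. The part of these cell types in the laminin values was not tested.

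Chains also varied together between arrays of a group. Of 36 pairs, 12 had an adjusted p under 0.05 for Pearson's r of group-centred levels over 20 arrays, by permutation within groups and Benjamini-Hochberg over the 36. The closest was Lamb1 with Lamc1, the beta 1 and gamma 1 chains that share most trimers, at r = 0.81 (permutation p = 0.00011, adjusted 0.00396) and Spearman's rho = 0.84 (permutation p = 0.00013, adjusted 0.00234). It was 0.80 without array 9, and 0.81 without the 2 arrays farthest from the median of Lamb1 (adjusted permutation p = 0.00648). The 2 farthest arrays were set by the first-named chain of a pair, so arrays far out in the second chain could stay in. Without the 2 arrays farthest in the first-named chain, none of the other pairs had an adjusted p under 0.05. Still r stayed large in some, as in Lama3 with Lamc1 (0.71 over 20 arrays, 0.73 without the 2 farthest).

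Lama3 with Lamb1 was at r = 0.80 (permutation p = 0.00073, adjusted 0.00657) and rho = 0.60 (permutation p = 0.0116, adjusted 0.0518), and r was 0.71 without the 2 farthest arrays. Lama2 with Lama3 was at r = 0.76 (permutation p = 0.00031, adjusted 0.0054) and rho = 0.68 (permutation p = 0.00264, adjusted 0.0237), with r = 0.55 without the 2 farthest. Lama3 with Lama4 was at r = 0.74 (permutation p = 0.00045, adjusted 0.0054) and rho = 0.80 (permutation p = 8e-05, adjusted 0.00234), with r = 0.56. Lama5 with Lamb1 was at r = 0.73 (permutation p = 0.0028, adjusted 0.0101) and rho = 0.71 (permutation p = 0.00329, adjusted 0.0237), with r = 0.52. Lama3 and Lamb3, partners in the epithelial trimer, were at r = 0.23 (adjusted permutation p = 0.516), so the levels of these partners were not shown to vary together. Arrays share labelling and brightness, and on the deposited values 23 of the 36 pairs passed. No share over pairs of other genes is given, so these counts are not shown to be particular to laminins.

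**Figure D4:**
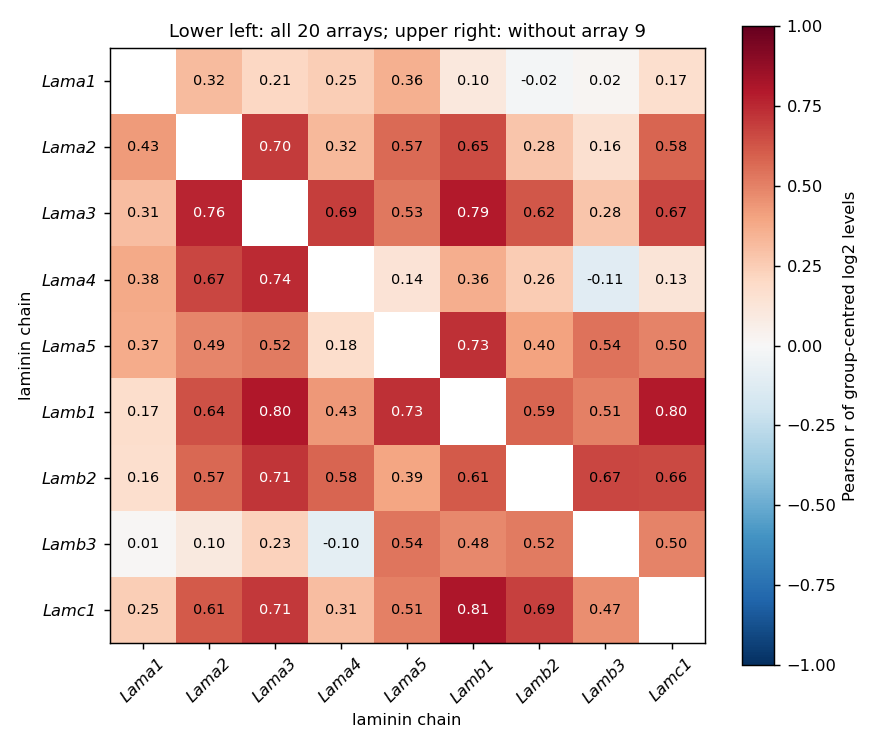
Pearson r between the group-centred log2 levels of each pair of laminin chains, over all 20 arrays in the lower left and over 19 arrays without Marfan sildenafil array 9 in the upper right, on a colour scale from -1 to 1. Lamb1 with Lamc1 is the darkest cell (0.81 and 0.80), while Lama1 is pale against most chains.

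A search over 9572 or 9573 other genes with a mean level above the median, ranked by r without array 9, named the genes most like each chain over 19 arrays, as a description. For Lama3 they were Adgrf5 (r = 0.98, and 0.90 over all 20 arrays), a receptor of alveolar and endothelial cells, Bmpr2 (0.95 and 0.88), a BMP receptor, and Cdh5 (0.93 and 0.79), the endothelial cadherin. For Lamb1 they were Itga8 (0.89 and 0.59), an integrin alpha chain, Mast2 (0.88 and 0.85) and Trrap (0.87 and 0.85). For Lamb2 they were Erg (0.87 and 0.89), an endothelial transcription factor, Emp2 (0.87 and 0.90), a membrane protein of alveolar type 1 cells, and Pcnt (0.86 and 0.80). For Lamb3 they were Car4 (0.90 and 0.81), a carbonic anhydrase of lung capillaries, Ppp2r5d (0.81 and 0.80) and Spryd3 (0.81 and 0.72). In these chains the likeness held over all 20 arrays at r of at least 0.59.

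For Lamc1 they were Cdc42bpb (0.92 and 0.78), Snrnp70 (0.91 and 0.91) and Senp3 (0.90 and 0.78). For Lama4 they were Abi3bp (0.87 and 0.93), a matrix protein, Ipo9 (0.83 and 0.38) and Tnrc6c (0.77 and 0.67). For Lama2 they were Kbtbd11 (0.87 and 0.82), Adamtsl3 (0.85 and 0.85), a matrix protein, and Cdc73 (0.85 and 0.81). The dim chains Lama5, with Myh10 (0.85 and 0.62), Fgfr1op2 (0.81 and 0.81) and Trpm4 (0.81 and 0.81), and Lama1, with Pirb (0.85 and 0.13), Ubxn7 (0.82 and 0.84) and Zhx1 (0.78 and 0.78), were treated the same way, and Pirb differed most between the 2 sets of arrays. Set against these candidates, Lamc1 was not the nearest gene to Lamb1, and 0.355% of candidates had a higher r with Lamb1 than Lamc1 had. For the other chains and their closest chain, that share ran from 0.24% (Lama5 with Lamb1) to 9.24% (Lama1 with Lama5).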

How the data were processed

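Per the submitters' processing notes, the authors made the values with Affymetrix Expression Console and RMA, and the deposited table holds log2 values per probe set. A software version or genome build is not given in the sources used here. Lung RNA (QIAzol, RNeasy) had an integrity number above 8.5, and 700 pg per sample was labelled with the Pico kit, per the labels' protocols. The 29129 entries held 6923 controls and 22206 transcript probe sets. Of these sets 19572 had 1 gene symbol in the platform annotation, and the other 2634 had no symbol or more than 1. The probe set with the highest mean stood for each of 19505 genes.

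Values were quantile-normalized over 20 arrays, and the 4 groups were fitted together, with 16 residual degrees of freedom, using limma 3.58.1 (lmFit and eBayes, variance trend on) under R 4.3.3. The threshold was an adjusted p of 0.05. The fit was tested on simulated data. Single genes also had an exact permutation test of the group labels, and correlations used 100000 permutations within groups. The number of arrays limits the precision.

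Named are all 9 chains, the up to 4 genes of smallest p in each list and comparison, and the 3 genes most like each chain, with Lamc3 shown beside them. For likeness, predicted genes, olfactory, vomeronasal and taste receptors, small RNAs and antigen receptor segments were left out. The chains and lists were chosen with earlier results of these data known. Alternatives were the deposited values, median centring, genes with a mean above the median, array weights, no variance trend, array brightness or 3 Y-linked genes as a covariate, only the groups compared, and each array left out. Those for the receptor and partner lists were added after seeing the data. Promoters are RefSeq's.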

Additional observations from a re-analysis of the deposited data

Results flagged for a closer look

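In 4 of 36 chain and group combinations a single array lay far from the others of its group by Dixon's criterion, and chance flags about 1 in 20 groups. Lamb2 read 8.29 on Marfan vehicle array 20, with the next at 7.70, and 7.68 on wild-type vehicle array 17, with the next at 7.24. Lama2 read 7.49 on wild-type sildenafil array 1, with the next at 7.94. Lamb3 read 7.32 on Marfan sildenafil array 10, with the next at 7.64. In the Marfan vehicle group array 20 was the highest array for 7 chains, and among these Lamb2 alone met the criterion.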

How the results depend on the processing

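No paired analysis was possible because the groups share no replicate numbers. No chain had an adjusted p under 0.05 in any comparison or setting, and the lowest was 0.0867, for Lama5 between the vehicle groups on the deposited values. The deposited values gave median differences of 0.64 between the vehicle groups, 0.44 for sildenafil in wild-type mice and -0.61 for the interaction, where the medians of all genes shifted by 0.25, 0.28 and -0.24. On them 7 chains had p under 0.05 between the vehicle groups (23.2% of all genes), 5 for sildenafil in wild-type mice (27.3%), 0 for sildenafil in Marfan mice (3.3%) and 3 for the interaction (8.91%). Between the vehicle groups the count was 3 with median centring (15.8% of all genes) and 3 with brightness as a covariate (7.23%). Array weights gave 1 for the genotypes under sildenafil, and a fit of only the groups compared gave 2 for sildenafil in Marfan mice. With each array left out, the counts ran from 0 to 7 between the vehicle groups and 0 to 3 for sildenafil in Marfan mice. They ran from 0 to 1 for sildenafil in wild-type mice, the interaction and sildenafil averaged over genotypes. For array weights, only the groups compared and arrays left out, no share over all genes is given here, so those counts lack that background. Of the chain pairs, 1 passed without the 2 farthest arrays and 23 on the deposited values. The cause of these changes was not tested. The direction of single chains differed from the reported one in 6 of 259 values between the vehicle groups and in 14 of 259 for sildenafil in Marfan mice. Lama1 and Lama5, near background, are absent from the genes with a mean above the median, where no median over the 9 chains could be given.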
